A study of Homo sapiens with 6 samples.

Results

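J-domain co-chaperones are the proteins that bring clients to the HSP70 chaperones, and the human DNAJA, DNAJB and DNAJC symbols cover most of them. Non-control probe sets annotated to a gene whose symbol begins with DNAJA, DNAJB or DNAJC and a number were sought, and 51 were found. Of these, 2 of pseudogenes were left out, 3 that carry several symbols were kept apart, and the other 46 were taken. This gave 43 genes of the 18417 with a probe set of 1 symbol, of which 4 were DNAJA, 12 were DNAJB and 27 were DNAJC. The data are 6 Affymetrix human gene arrays from HEK293T, an established line of human kidney origin that is easily transfected. In 3 samples the cells had received the plasmid pNTAP-2×flag-VRTN, which holds the coding sequence of pig VRTN behind a flag tag. In the other 3 they had received the vector with no insert, and all RNA was taken 24 h after transfection, with 500 ng used per array. The labels call the 3 arrays of each group biological replicates and do not say whether these were separate cultures, so p-values measure the spread between these samples. The model is 1 cell line after a transient transfection, and the transgene is a pig sequence read by probes for human VRTN.

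The J domain binds HSP70 and stimulates its ATPase, through a conserved histidine, proline and aspartate motif, so that HSP70 closes on its client. Nucleotide exchange factors of the HSP110 and BAG families then release ADP and the client. Class A members keep the whole domain layout of bacterial DnaJ, class B members lack its zinc-binding region, and class C members share only the J domain and mostly serve 1 compartment or task. Some class A and B genes are induced by heat shock factor 1 (HSF1) when cytosolic proteins misfold, and a separate group is induced by the unfolded protein response of the endoplasmic reticulum (ER).

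Heat shock factor 1 binds alternating GAA and TTC units. The promoters of the heat-inducible genes are therefore shown for the members where the annotated start lies at the edge of the gene. The windows run from 250 bases before the start to 50 after it, in RefSeq sequence of GRCh38.p14, and capitals mark each pair of inverted units, written GAANNTTC or TTCNNGAA. Both pairs are their own reverse complement, so 1 strand covers both, and matches may overlap. DNAJA1 is at chr9:33025023-33025322 on the plus strand, DNAJB6 at chr7:157336754-157337053 on the plus strand and DNAJB4 at chr1:77978925-77979224 on the plus strand.
DNAJA1: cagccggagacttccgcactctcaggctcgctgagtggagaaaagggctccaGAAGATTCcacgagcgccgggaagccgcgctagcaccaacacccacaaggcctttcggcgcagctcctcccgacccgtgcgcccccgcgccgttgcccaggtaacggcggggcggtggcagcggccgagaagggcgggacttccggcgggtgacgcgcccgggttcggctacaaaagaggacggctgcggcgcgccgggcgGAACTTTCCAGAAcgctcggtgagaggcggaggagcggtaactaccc
DNAJB6: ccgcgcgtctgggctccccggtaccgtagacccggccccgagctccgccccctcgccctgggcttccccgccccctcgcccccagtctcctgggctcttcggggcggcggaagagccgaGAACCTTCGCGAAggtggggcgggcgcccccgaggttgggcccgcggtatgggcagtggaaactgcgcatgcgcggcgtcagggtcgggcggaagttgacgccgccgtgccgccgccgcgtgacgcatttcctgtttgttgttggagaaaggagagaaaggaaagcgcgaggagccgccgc
DNAJB4: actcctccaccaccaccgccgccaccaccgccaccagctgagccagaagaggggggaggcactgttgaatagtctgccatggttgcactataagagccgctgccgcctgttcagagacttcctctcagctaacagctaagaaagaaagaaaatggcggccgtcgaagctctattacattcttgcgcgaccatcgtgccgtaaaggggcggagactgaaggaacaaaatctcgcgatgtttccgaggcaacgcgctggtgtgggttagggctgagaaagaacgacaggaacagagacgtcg

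The DNAJA1 window held 3 pairs. Counting the annotated start as the first base, with no base 0, they ran from -198 to -191, from 4 to 11 and from 9 to 16. The last pairs thus overlapped and made 3 alternating units. The DNAJB6 window held an overlapping couple of pairs at -131 to -124 and -126 to -119, again 3 alternating units. The DNAJB4 window held no pair. RefSeq places the single start given for DNAJB1 31120 bases inside the annotated gene, which has 7 listed transcripts. Its window, which held no pair, is not printed, and the other starts of DNAJB1 were not searched.

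**Figure D1:**
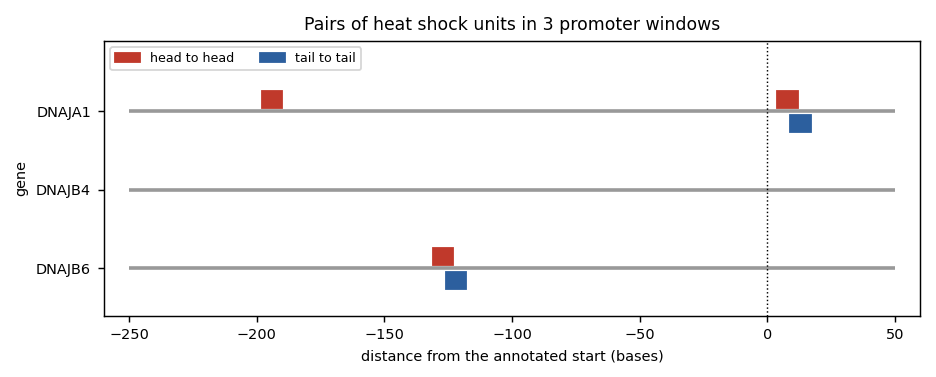
Positions of paired heat shock units in the promoter windows of DNAJA1, DNAJB4 and DNAJB6, as distance in bases from the annotated start (dotted line). Red boxes are GAANNTTC pairs and blue boxes TTCNNGAA pairs. DNAJA1 holds 3, DNAJB6 holds 2 and DNAJB4 holds 0.

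Windows were found for 39 of the 43 genes, and 4 of these (10.3%) held at least 1 pair, against 13.5% of 35116 windows of the same length. The other pairs were 1 in DNAJB7 and 1 in DNAJC15. GAANNTTC alone was in 6.77% of all windows and TTCNNGAA alone in 7.74%. A run of 3 alternating units was in 2 of the 39 windows (5.13%) and in 172 of all windows (0.490%). The 35116 windows were not limited to protein-coding genes or to 1 window a symbol, while the 39 were. The shares may thus come from unlike sets of genes. These are matches of letters, for the members in 1 window a gene, not binding sites.

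Across the whole table, 29183 non-control probe sets were tested with limma (two-sided, Benjamini-Hochberg adjustment over all of them), and 4 passed an adjusted p of 0.05 (0.0137%). The median log2 fold change was -0.0049, the middle 95% ran from -0.23 to 0.24, and 48.0% of values were positive. The probe set for human VRTN was at 5.10 ± 0.11 (SD, n = 3) without the insert and 6.18 ± 0.097 (SD, n = 3) with it, on the log2 scale. The limma adjusted p was 0.019 and ran from 0.040 to 0.26 when 1 array was left out. All 3 empty-vector values lay below the negative control median of their array, that of 2904 probe sets with no human target, so no size is given for this change. Of 7 markers of HEK293 cells, 4 (VIM, LIN28B, PAX2 and NEFL) lay above the negative control median on all 6 arrays. NEFM and NEFH lay below it on 5 arrays. The mean of these 7 was 7.23 to 7.26 on the VRTN arrays and 7.28 to 7.37 on the others, with no overlap. LIN28B (log2 change -0.22, unadjusted limma p 0.023, adjusted p 0.84), NEFL (-0.14) and NEFM (-0.19) were lower on every VRTN array. PAX2 (0.14) and INA (0.040) had positive changes and VIM (-0.11) and NEFH (-0.010) negative ones, all with overlapping groups. The part of these marker differences in the changes below was not tested. Of 9 markers of other cells, 5 lay below the negative control median on all 6 arrays (PTPRC, CD3E, ALB, PECAM1 and HBB). COL1A1, COL1A2 and GFAP lay above it on all 6. The mean of those 9 was 5.39 to 5.43 on the VRTN arrays and 5.29 to 5.47 on the others. The 9 hybridisation spike probe sets, bacterial transcripts added after labelling, were at 10.60 ± 0.10 (SD, n = 3) on the VRTN arrays and 10.24 ± 0.19 (SD, n = 3) on the others, and the part of this difference in the changes below was not tested.

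DNAJB1 was the J-domain gene that rose. It encodes the main stress-inducible class B partner of cytosolic HSP70, which with HSP70 and an HSP110 protein refolds and disaggregates clients. Its log2 signal was 8.61, 8.37 and 8.38 on the empty-vector arrays and 9.94, 9.83 and 10.21 on the VRTN arrays. The groups were more than 1 unit apart, and the lowest VRTN array lay far above the highest control. The change was 1.54 ± 0.12 (SE) on the log2 scale, or 2.91-fold (95% interval 1.27 to 1.81 on the log2 scale), with a limma adjusted p of 0.018. It ranked 3 of all probe sets by change and 2 by p, and 12 probe sets reached a change of 2-fold. The same-numbered differences were 1.33, 1.46 and 1.83. The labels do not say that equal numbers are pairs. With the replicate block, which treats them so, the limma adjusted p was 0.043. The size held when any 1 array was left out (1.43 to 1.62), but the call did not: the limma adjusted p was 0.19 without empty-vector replicate 2, 0.15 without empty-vector replicate 3, 0.13 without VRTN replicate 1 and 0.072 without VRTN replicate 2. In bulk RNA, more RNA in each cell cannot be told apart from more cells that carry it.

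DNAJA1 had the second highest change among the 43 genes but did not pass the test. It is a farnesylated class A partner of cytosolic HSP70. Its log2 signal was 10.52, 10.33 and 9.89 without the insert and 10.88, 10.66 and 10.39 with it. The groups overlapped, while each VRTN array was above the empty-vector array of the same number, by 0.36, 0.33 and 0.50. The change was 0.40 ± 0.18 (SE), with an unadjusted limma p of 0.057 and an adjusted p of 0.89. It was 0.22 without empty-vector replicate 3 and at most 0.53 without any other single array. With the replicate block the SE was 0.062, the unadjusted limma p was 0.000745 and the adjusted p was 0.20.

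DNAJB6, which holds polyglutamine proteins in solution, is the class B member whose promoter window is shown above with 3 units. Its log2 signal was 9.82, 9.73 and 9.87 without the insert and 9.91, 9.88 and 9.90 with it. The groups did not overlap, by a narrow margin. The change was 0.093 ± 0.068 (SE), unadjusted limma p 0.21. Its second probe set gave 0.15 ± 0.087 (SE), unadjusted limma p 0.12, and there the groups overlapped.

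DNAJB4 is a class B relative of DNAJB1 expressed in many tissues. Its log2 signal was 8.48, 8.46 and 8.60 without the insert and 8.41, 8.42 and 8.49 with it. The groups overlapped, and the 3 same-numbered differences were all negative (-0.072, -0.037 and -0.11). The change was -0.071 ± 0.071 (SE), with a 95% interval from -0.23 to 0.093 and an unadjusted limma p of 0.34.

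The 4 genes known to be induced by heat thus had a median change of 0.24, with 3 positive and 1 negative. Of the 4, 1 passed the test, where 0.0137% of all probe sets did. The median was 0.23, 0.24 and 0.26 in the 3 same-numbered pairs, but it is the midpoint of DNAJA1 and DNAJB6 and says little of DNAJB1. Within an array, the change of DNAJB1 was larger than that of DNAJA1 by 1.14, of DNAJB4 by 1.61 and of DNAJB6 by 1.45. In each of these 3 comparisons all VRTN arrays lay above all empty-vector arrays. The two-sided exact permutation p was 0.1 each time, the smallest that 3 arrays against 3 allow, and 0.1 after Benjamini-Hochberg adjustment over the 3.

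**Figure D2:**
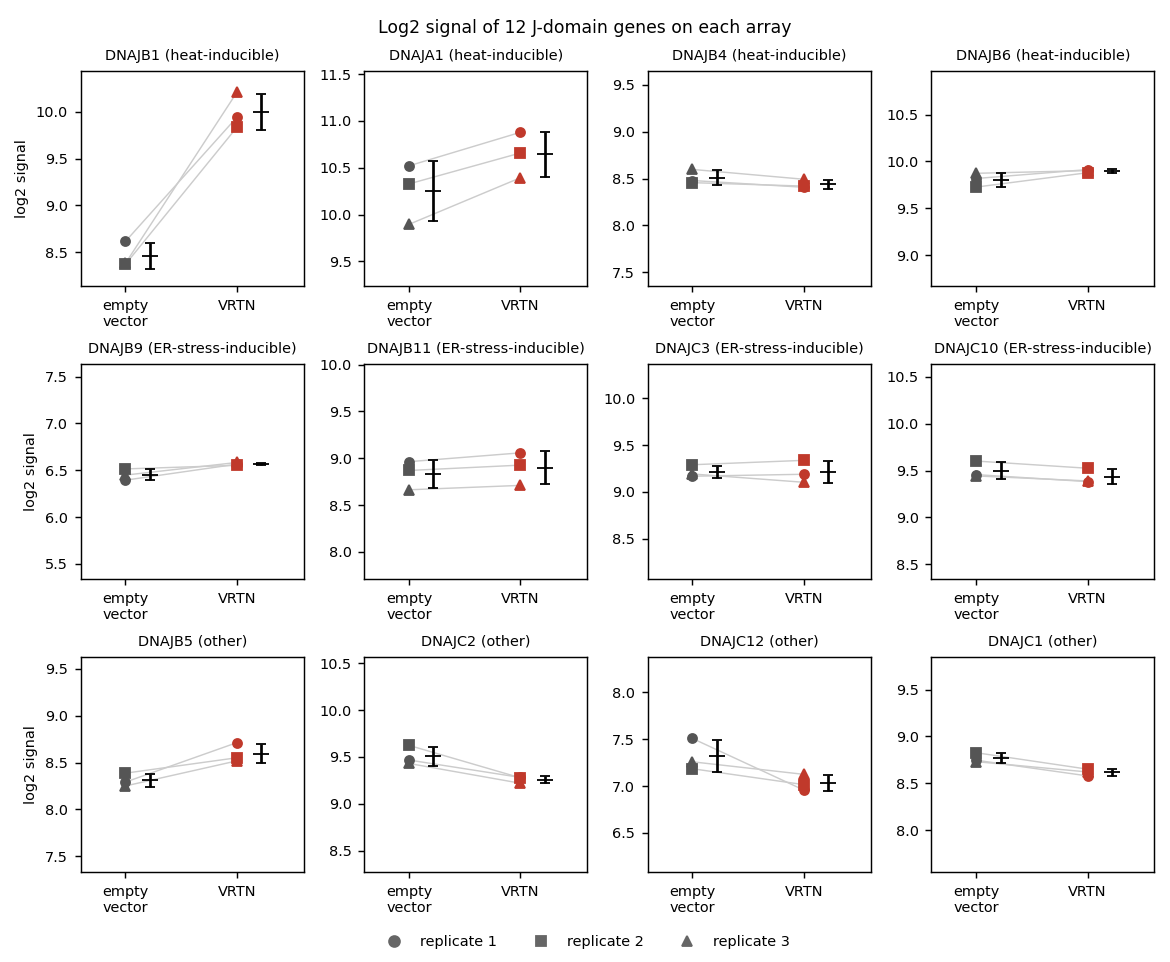
Log2 signal of 12 J-domain genes on each array, with empty vector in grey and VRTN in red, marker shape for the replicate number, and bars for the mean ± SD of 3 arrays. Each panel spans its own levels. DNAJB1 alone shows a wide gap between the groups, and DNAJA1 moves in parallel within numbers while its groups overlap.

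None of the 4 ER-stress-inducible members was called by limma, where 0.0137% of all probe sets were. At an unadjusted limma p under 0.05 there were 0, against 2.65% of all probe sets higher and 2.92% lower. DNAJB9, which helps to bring misfolded ER proteins to degradation, measured 6.39, 6.51 and 6.45 without the insert and 6.56, 6.55 and 6.58 with it. Its groups did not overlap, the change was 0.11 ± 0.066 (SE), and the unadjusted limma p was 0.12. DNAJB11, a soluble cofactor of the ER chaperone BiP, measured 8.96, 8.87 and 8.66 without the insert and 9.06, 8.93 and 8.71 with it. Its groups overlapped across almost their whole range. DNAJC3, a BiP cofactor also known as an inhibitor of the kinase PERK, measured 9.17, 9.29 and 9.19 without the insert and 9.19, 9.34 and 9.10 with it. DNAJC10, an ER disulfide reductase, measured 9.46, 9.60 and 9.44 without the insert and 9.38, 9.53 and 9.39 with it. For both the groups overlapped. The changes of DNAJB11, DNAJC3 and DNAJC10 were 0.066, -0.0071 and -0.068, and the median of the 4 was 0.030. That median ran from -0.019 to 0.076 when 1 array was left out, and was below 0 without empty-vector replicate 3, VRTN replicate 1 or VRTN replicate 2. DNAJB11 and DNAJC3 also changed sign with some arrays left out. Over the 10 measured members that sit in or on the ER, 5 changes were positive and 5 negative, with a median of 0.030 and a range from -0.15 to 0.11.

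By class, the DNAJA genes had a median change of 0.033 (2 positive, 2 negative), the DNAJB genes 0.062 (9 positive, 3 negative) and the DNAJC genes -0.023 (9 positive, 18 negative). DNAJC3, DNAJC6 and DNAJC30 turned positive under repeated quantile normalization. Without DNAJB1 the DNAJB median was 0.058, with 8 positive and 3 negative. The DNAJA median ran from -0.018 to 0.088 when 1 array was left out, and was -0.090 without the dimmest 40% of probe sets, which takes out DNAJA4. All 43 together had a median of -0.0075, with 20 positive and 23 negative, beside -0.0049 for all probe sets. The median size of change was 0.093, against 0.067 over all probe sets.

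**Figure D3:**
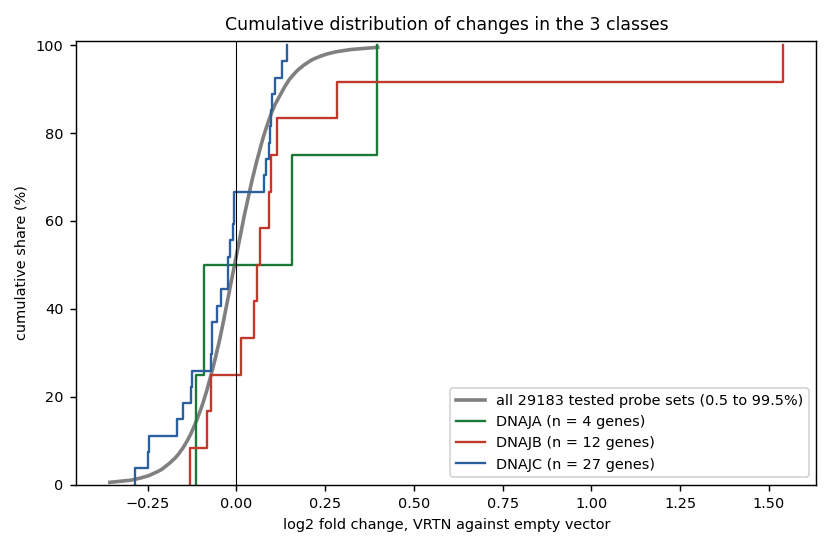
Cumulative share in percent of DNAJA (4 genes), DNAJB (12) and DNAJC (27) with a log2 fold change at or below the value on the x axis, with all 29183 probe sets in grey. The DNAJC curve lies left of the grey curve over part of its range, and the DNAJB curve has a long step out to DNAJB1 at 1.54.

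At an unadjusted limma p under 0.05, 2 of the 43 genes were higher and 2 lower, where 2.65% and 2.92% of all probe sets were. The groups did not overlap for 6 higher and 6 lower genes, against 5.39% and 5.92% of all probe sets. The higher ones were DNAJB1, DNAJB5, DNAJB9, DNAJB6, DNAJA4 and DNAJC22, and the lower ones were DNAJC2, DNAJC12, DNAJC1, DNAJC21, DNAJA2 and DNAJA3. With the replicate block the unadjusted count was 3 higher and 4 lower, against 5.31% and 6.19% of all probe sets, and 8 probe sets in all passed the adjusted p of 0.05 (0.0274%), DNAJB1 still the member among them. The 3 same-numbered differences were all positive for 15 genes and all negative for 12. Over all probe sets these shares were 15.8% and 19.1%.

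**Figure D4:**
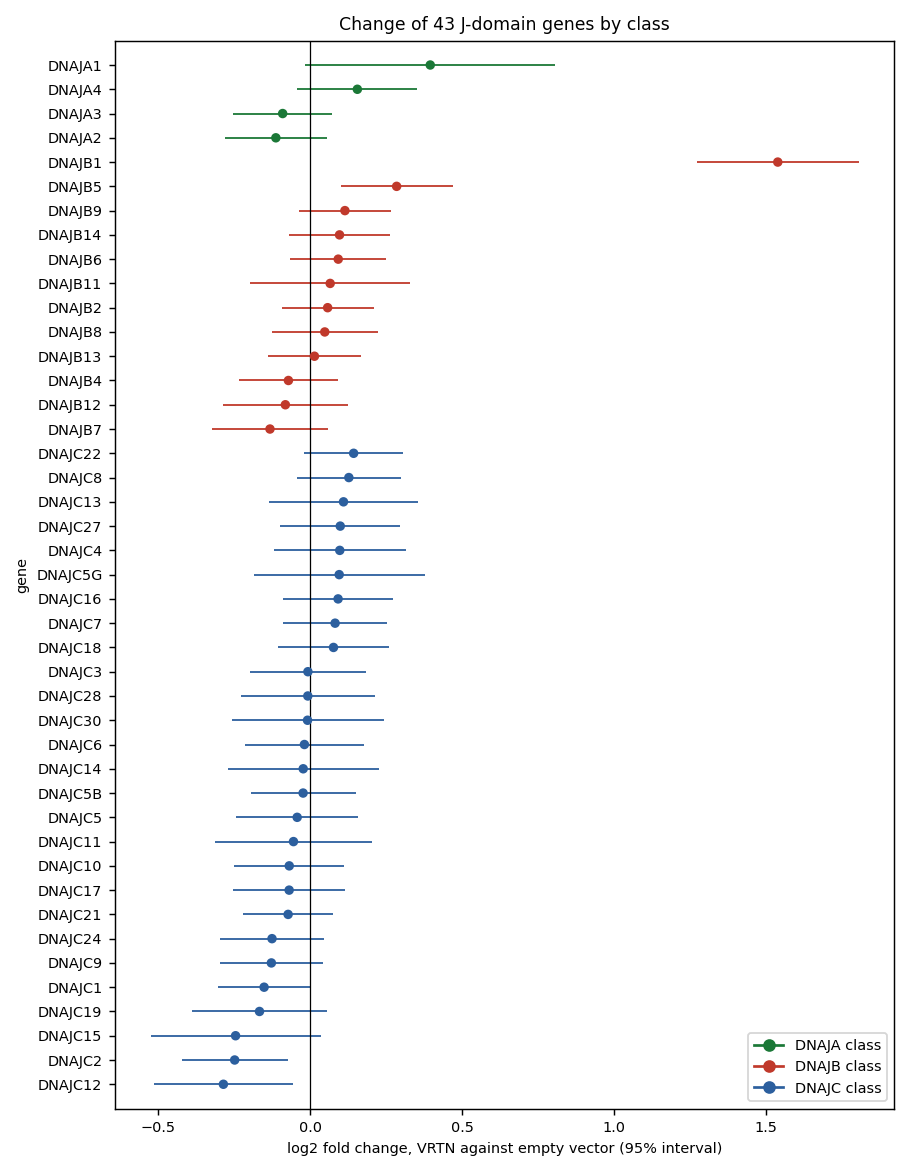
Log2 fold change of VRTN against empty vector for each of the 43 genes, ordered within class, with 95% limma intervals. DNAJB1 at 1.54 stands apart, and the intervals of DNAJB5, DNAJC2 and DNAJC12 are the others that leave out 0.

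DNAJB5 is a class B member close to DNAJB1 and DNAJB4. It measured 8.29, 8.39 and 8.25 without the insert and 8.71, 8.55 and 8.52 with it. All VRTN arrays lay above all controls, with same-numbered differences of 0.42, 0.16 and 0.27. The change was 0.28 ± 0.080 (SE), unadjusted limma p 0.0076 and adjusted p 0.71, so it was not called.

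DNAJC2 works at the ribosome with the HSP70 relative HSPA14 and also binds chromatin. It measured 9.47, 9.62 and 9.43 without the insert and 9.28, 9.28 and 9.22 with it. Every VRTN array was below every control. The change was -0.25 ± 0.075 (SE), unadjusted limma p 0.011 and adjusted p 0.77.

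DNAJC12 assists the aromatic amino acid hydroxylases. It measured 7.51, 7.19 and 7.26 without the insert and 6.96, 7.02 and 7.13 with it. The groups did not overlap, although the difference within number 1 (-0.55) was much wider than within numbers 2 (-0.17) and 3 (-0.13). The change was -0.29 ± 0.099 (SE), unadjusted limma p 0.021 and adjusted p 0.83.

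DNAJC1, an ER membrane protein that binds ribosomes, changed by -0.15 ± 0.066 (SE) with an unadjusted limma p of 0.051, and by the block 0.035. The 4 genes lower at that level with the block were DNAJC1, DNAJC2, DNAJC12 and DNAJC15, and the 3 higher were DNAJB1, DNAJA1 and DNAJB5. DNAJC15 lay below the negative control median on all 6 arrays, so that its change of -0.25 is one of background signal.

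Of the 35 members in neither inducible group, 15 changes were positive and 20 negative, with a median of -0.019 and a range from -0.29 (DNAJC12) to 0.28 (DNAJB5). None was called by limma (0.0137% of all probe sets were), and at an unadjusted p under 0.05 there were 1 higher and 2 lower, against 2.65% and 2.92% of all probe sets. The 5 members listed here as mitochondrial were DNAJA3, DNAJC11, DNAJC15, the import motor subunit DNAJC19 and DNAJC30, and the list may not be complete. All 5 had negative changes, from -0.25 to -0.0084 with a median of -0.090. The lowest, DNAJC15, lay below the negative control median on all 6 arrays, and the probe set of DNAJC19 is marked as cross-hybridising. None of the 5 passed at an unadjusted limma p under 0.05. DNAJC11 and DNAJC30 turned sign when some arrays were left out, DNAJC30 also under quantile normalization. The list does not hold DNAJC4 (0.098), DNAJC28 (-0.0075) or HSCB (0.049). The shared direction is therefore one of the 5 listed genes only, not of all mitochondrial members. The 6 members of the nucleus, RNA and ribosome had a median of -0.099, with 5 negative. The positive one was the splicing-associated DNAJC8 at 0.13, and the negative ones were DNAJC2, the histone chaperone DNAJC9, DNAJC17, DNAJC21 (60S ribosome maturation) and DNAJC24 (diphthamide synthesis). Among 4 members of vesicle traffic, the clathrin uncoating factor auxilin (DNAJC6) and the synaptic vesicle protein DNAJC5 were at -0.019 and -0.042, and DNAJC13 and DNAJC27, which act on endosomes and as a RAB-like GTPase, at 0.11 and 0.099.

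The members named next had changes from -0.11 to 0.14. DNAJA2, a constitutive partner of HSP70, was at -0.11, DNAJB2, a neuronal member with ubiquitin-interacting motifs, at 0.058 and DNAJC7, which links HSP70 to HSP90, at 0.082. DNAJB12 and DNAJB14, related ER membrane proteins that recruit cytosolic HSP70 to degradation, were at -0.081 and 0.097. DNAJC22, whose role is less known, was at 0.14, with 3 arrays below the negative control median. DNAJC4, DNAJC14, DNAJC16, DNAJC18 and DNAJC28 were at 0.098, -0.023, 0.092, 0.077 and -0.0075. None had an unadjusted limma p under 0.05, where 2.65% of all probe sets were higher and 2.92% lower at that p.

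Signal was above the negative control median on all 6 arrays for 35 of the 43 genes and below it on all 6 for 5. Those 5 were DNAJA4, DNAJB7, DNAJC15, DNAJC5B and DNAJC5G. The 5 members known mainly from testis or cilia, DNAJB7, DNAJB8, DNAJB13, DNAJC5B and DNAJC5G, were below it on at least 5 arrays each. Their changes ran from -0.13 to 0.096. In order of replicate number, the negative control median was 5.36, 5.92 and 6.13 on the empty-vector arrays. On the VRTN arrays it was 5.59, 5.90 and 6.06. A count of arrays below it thus depends on the array as well as on the gene.

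Several genes rest on probe sets that need care. The brightest probe set of DNAJC9, used here, has 25 of 31 probes matching its transcript and that of DNAJC19 has 12 of 15, and both carry the annotation's mark of cross-hybridisation. They gave -0.13 and -0.17, the latter -0.089 with array weights, while the other probe sets gave -0.11 for DNAJC9 and -0.083 for DNAJC19, with unadjusted limma p of 0.36 and 0.46. For DNAJB4, both DNAJB6 probe sets, DNAJB11, DNAJC6, DNAJC28 and DNAJC5G, the transcript field gave no RefSeq entry of the gene. Their match and any cross-hybridisation could thus not be read, and the setting without cross-hybridising probe sets kept them. DNAJC25 was annotated only by a probe set that also carries the read-through gene DNAJC25-GNG10, so its signal cannot be given to 1 gene. That probe set measured 8.13, 8.36 and 8.19 without the insert and 8.07, 8.11 and 8.05 with it, a change of -0.15 ± 0.079 (SE), unadjusted limma p 0.092, with no overlap of the groups. The other 2 with several symbols, for DNAJC25-GNG10 with GNG10 and for DNAJB14 with another locus, changed by 0.0023 and -0.013. The pseudogenes DNAJA1P5 and DNAJB3, left out, lay below the negative control median on all 6 arrays.

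Among the partners, the exchange factor HSPH1, an HSP110 protein, rose with DNAJB1. It measured 10.97, 10.73 and 10.69 without the insert and 11.78, 11.74 and 11.75 with it, a change of 0.96 ± 0.087 (SE), limma adjusted p 0.037. The limma adjusted p was 0.020 without empty-vector replicate 1 and 0.12 to 0.40 without any other array. HSPA6, an HSP70 that cells make almost only under stress, measured 6.72, 6.52 and 6.35 without the insert and 8.59, 8.04 and 7.39 with it. Its VRTN arrays were all above its controls but spread over more than 1 unit, and the change of 1.48 ± 0.27 (SE) had an unadjusted limma p of 0.00063 and an adjusted p of 0.39.

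HSPA8, the constitutive HSP70 of the cytosol, was at 12.56, 12.36 and 12.40 without the insert and 12.73, 12.65 and 12.63 with it. The groups did not overlap, and the change of 0.23 ± 0.077 (SE) had an unadjusted limma p of 0.019 and an adjusted p of 0.82. HSPA4L, another HSP110 protein, was at 0.40 ± 0.067 (SE), adjusted p 0.35 in the same limma fit. HSPA1A and HSPA1B, the main inducible HSP70 genes, share 5 probe sets that cannot tell them apart. These changed by 0.21 to 0.30, with no overlap of the groups in any, unadjusted limma p from 0.0046 to 0.041 and adjusted p from 0.66 to 0.87. Some of these probe sets gave equal or nearly equal values on every array, so they are not 5 separate readings.

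Over 24 HSP70 and exchange factor genes, 1 was called, 5 had an unadjusted limma p under 0.05, all higher (0.0137% of all probe sets were called and 2.65% were higher at that p), and the median was -0.0085 with 11 positive and 13 negative. Those 24 leave out HSPA1A and HSPA1B. Among the 5 higher genes, the exchange factor BAG3 changed by 0.47 ± 0.16 (SE), with overlapping groups, an unadjusted limma p of 0.017 and an adjusted p of 0.81. Of the exchange factors with a negative change, BAG1 at -0.24 and BAG4 at -0.12 had the smallest p, and of the HSP70 genes with one, the distant relatives HSPA12A and HSPA12B at -0.098 and -0.083. None of these 4 had an unadjusted limma p under 0.05. Of the 6 HSP90 and linking genes measured, none was called (0.0137% of all probe sets were). HSP90AA1, the inducible cytosolic HSP90, was at 0.21 (unadjusted limma p 0.014) and STIP1, which joins HSP70 and HSP90, at 0.17. The mitochondrial TRAP1 was at -0.19 (unadjusted limma p 0.028), or -0.091 as the mean of its probe sets, and the ER HSP90B1 at -0.058. HSF1 itself was at -0.091 ± 0.096 (SE), unadjusted limma p 0.38. The J-domain genes with other symbols, HSCB of iron-sulfur assembly, SEC63 of the ER translocon and the auxilin relative GAK, were at 0.049, -0.088 and -0.0055, and GAK and HSCB turned sign under other settings.

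**Figure D5:**
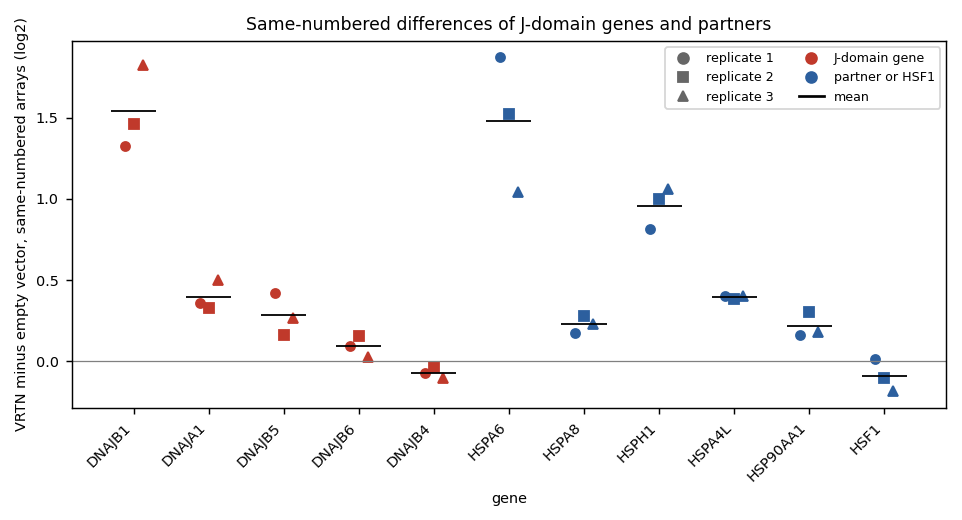
Same-numbered differences in log2 signal, VRTN minus empty vector, for 5 J-domain genes (red) and 6 partner genes with HSF1 among them (blue), marker shape giving the replicate number and the bar the mean. DNAJB1, HSPA6 and HSPH1 lie highest, and the 3 points of HSPA4L almost coincide.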

How the data were processed

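Total RNA from HEK293T cells was measured on 6 Affymetrix human gene arrays, 3 per group, grouped by the labels. The deposited values are log2 signals, RMA-normalized per the file headers. The submitters' processing notes name Affymetrix Expression Console 1.0, and the genome build is not given in the sources used here. Both deposited tables hold the same values, with 0 differing. All 29183 non-control probe sets of 33297 were fitted with limma 3.58.1 in R 4.3.3 (lmFit, eBayes, Benjamini-Hochberg over all of them, no filter on low values). Array number limits the precision. A gene is its brightest probe set. Symbols came from the platform annotation, where 19461 tested probe sets have 1 symbol, 1752 several and 7970 none, and from the transcript field. Tables were made with Python 3.11.15, pandas 2.3.3 and matplotlib 3.10.9. The fit was tested on simulated data.

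The members, gene lists and tests were chosen with earlier results of these data known. Genes were named by rule. Every member was named, with array values for the 4 heat-inducible and 4 ER-stress-inducible ones and those with an unadjusted p under 0.05. Non-members were VRTN, HSF1, HSPA8, HSPH1, HSPA1A, HSPA1B and up to 2 in each direction, by smallest p, of each partner list. BAG3 was added outside this rule. The same replicate numbers occur in both groups, and the labels do not say that equal numbers are pairs. Deviations of same-numbered arrays from their group means correlated at 0.54, 0.16 and 0.50. Whether the numbers pair the samples was not tested. The replicate block was an alternative, beside quantile normalization, median centring, a filter leaving out the dimmest 40%, a trended robust prior, array weights, no variance moderation, the series value table, the mean of a gene's probe sets, and leaving out each array. Leaving out cross-hybridising probe sets was added after seeing the data. Promoter windows of 300 bases are RefSeq's on GRCh38.p14.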

Additional observations from a re-analysis of the deposited data

Results flagged for a closer look

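The 9 probe sets for bacterial hybridisation spikes, which no comparison of genes uses, were higher on the VRTN arrays by 0.35 on the log2 scale. The spike means were 10.26, 10.05 and 10.42 on the empty-vector arrays and 10.48, 10.68 and 10.63 on the VRTN arrays, with no overlap. The polyA spikes, added to the RNA before labelling, differed by -0.045. What this has to do with the change of any J-domain gene was not tested.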

How the results depend on the processing

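The replicate block raised the probe sets called from 4 to 8 and the J-domain genes at an unadjusted p under 0.05 from 4 to 7, and it changed no other call among the J-domain genes. Array weights gave 14 and 9. Without variance moderation no probe set and no J-domain gene was called (0 and 0, DNAJB1 at a limma adjusted p of 0.55), while 6 J-domain genes had an unadjusted p under 0.05. Leaving out 1 array gave 1 to 4 probe sets, 0 to 1 J-domain genes called and 3 to 6 at an unadjusted p under 0.05. The share of all probe sets at that unadjusted p was counted only for the main fit and the replicate block. The member counts under the other settings thus have no such share beside them and are not read as a result about the members. Without the dimmest 40% of probe sets the DNAJA median was -0.0902, as DNAJA4 drops out, and the DNAJB median 0.0927. With 1 array left out the medians ran from -0.0176 to 0.0881 (DNAJA), 0.0303 to 0.0859 (DNAJB), 0.17 to 0.32 (heat-inducible), -0.0189 to 0.0764 (ER-stress-inducible) and -0.0193 to 0.0556 (HSP70 partners and exchange factors). Repeated quantile normalization gave 0.28 for the heat-inducible and 0.0159 for the partner median, and array weights 0.0243 for the latter. Of 258 values of single members with 1 array left out, 232 kept direction and call, 22 in 11 genes changed sign and 4, all of DNAJB1, lost the call. Those 11 genes and their ranges were DNAJB11 (-0.0182 to 0.16), DNAJB13 (-0.0157 to 0.0399), DNAJC11 (-0.15 to 0.0356), DNAJC14 (-0.0837 to 0.0681), DNAJC28 (-0.0612 to 0.0798), DNAJC3 (-0.0709 to 0.0462), DNAJC30 (-0.12 to 0.0666), DNAJC5 (-0.12 to 0.00664), DNAJC5B (-0.0560 to 0.0235), DNAJC5G (-0.00730 to 0.18) and DNAJC6 (-0.0846 to 0.0344). HSCB ran from -0.00142 to 0.13 and GAK from -0.0424 to 0.0331. Of 423 member values under the other alternatives, 416 kept direction and call. The replicate block, the trended prior, no variance moderation and the series value table leave each fold change as it is. The probe set mean and the cross-hybridisation setting alter it only for members with more than 1 probe set. The count of 416 therefore says little of how firm the directions are. Quantile normalization turned DNAJC3 to 0.0222, DNAJC30 to 0.0140, DNAJC6 to 8.29e-05 and GAK to 0.0138, took HSPH1 to a limma adjusted p of 0.058, and array weights turned DNAJC3 to 0.0397, DNAJC14 to 0.0445, DNAJC5B to 0.00194, HSPA12B to 0.0186 and HSCB to -0.0885. The cause of these changes was not tested. All these values rest on 3 arrays a group, and the 5 genes below the negative control median on every array carry little signal.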
